A study of Rattus norvegicus with 6 samples.

Results

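The miRNAs miR-320, miR-484, miR-877 and miR-1224 reach their mature form by routes that skip part of the usual miRNA maturation pathway. They were measured here by 18 of the 5560 probes on a custom vertebrate miRNA microarray hybridised with rat kidney RNA. The probes were chosen by name: every standard probe called miR-320 (with or without a letter from a to e), miR-484, miR-877 or miR-1224 in any species, with mature* probes left out. There were 9 miR-320 probes, 2 miR-484 probes, 1 miR-877 probe and 6 miR-1224 probes, and 4 of the 18 carry a rat name.

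In the canonical route, the nuclear enzyme Drosha cuts a hairpin out of a long transcript and Dicer then cuts the hairpin down to the mature miRNA. Precursors of miR-320 and miR-484 are instead made by transcription itself: the capped 5′ end of the short transcript is the end of the hairpin, and Drosha is not needed. The precursors of miR-877 and miR-1224 are mirtrons, short introns that splicing releases as ready hairpins. Dicer cuts all 4 precursors. Small RNAs of these kinds are used to ask whether a change acts on Drosha processing or on miRNAs in general.

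The study compared kidneys of male Big Blue rats, a transgenic Fisher 344 line that carries a reporter for mutations, with and without aristolochic acid (AA), a plant toxin that damages the kidney tubule and is carcinogenic. The 3 AA rats (replicates 19, 20 and 21) were 6 weeks old at the start and received AA as a sodium salt by gavage (10.0 mg in 4 ml per kg of body weight) on 5 occasions a week for 12 weeks, and were killed 1 day after the last dose. The 3 control rats (replicates 13, 14 and 15) had the same strain, sex, transgene and starting age and were untreated. Each array held RNA of 1 rat, labelled with Cy3 in a single colour, and each probe was printed in 2 spots. Values given for all arrays follow the order of replicates 13, 14 and 15 for control and 19, 20 and 21 for AA. Whole kidney tissue was used, so that fewer cells of a type and less RNA per cell cannot be told apart.

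The sequences that each probe was made to detect show which probes measure the same molecule. In the lines for mature targets the seed, bases 2 to 8 counted from the 5′ end and the main determinant of target choice, is in capitals. The hairpins were taken from RefSeq (GRCr8), which held 3 of the 4 rat miRNAs, and there the mature miRNA is in capitals. The miR-484 set is shown because its 2 probes gave different readings, and the miR-1224 set because it holds both arms of the hairpin.

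rno-miR-484: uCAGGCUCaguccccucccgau
ssc-miR-484: cCCAGGGGgcgacccaggcu
Mir484 hairpin: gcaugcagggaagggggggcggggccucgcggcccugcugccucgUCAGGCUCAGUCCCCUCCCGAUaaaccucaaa
rno-miR-877: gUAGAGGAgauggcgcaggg
Mir877 hairpin: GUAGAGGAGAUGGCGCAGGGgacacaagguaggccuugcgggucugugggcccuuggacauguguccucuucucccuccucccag
rno-miR-1224: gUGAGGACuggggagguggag
ptr-miR-1224-5p: gUGAGGACucgggagguggagggu
hsa-miR-1224-5p: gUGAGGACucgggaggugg
hsa-miR-1224-3p: cCCCACCUccucucuccucag
ssc-miR-1224: cACCUCCUcucuccucaggu
Mir1224 hairpin: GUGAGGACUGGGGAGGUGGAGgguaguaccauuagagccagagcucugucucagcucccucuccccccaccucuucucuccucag

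Mir484 lies at chr10:1394905-1394981 on the minus strand, between the genes Nde1 and Marf1. Mir877 lies at chr20:2816284-2816368 on the plus strand inside Abcf1, and Mir1224 at chr11:93811291-93811375 on the minus strand inside Vwa5b2. Both of these hairpins begin with GU and end with AG, the dinucleotides that bound an intron, and in both the mature miRNA starts at the first base. The mature miRNA of Mir484 starts at base 46 of a hairpin of 77 bases.

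The pig probe ssc-miR-484 shares a name with rno-miR-484 but not a sequence. The longest run of bases common to the pig and rat targets was 6, and no placement of the 20 bases of the pig target on the rat hairpin, without gaps, matched more than 12 of them. Its reading is therefore given under the name of the probe, not as a reading of rat miR-484.

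The 4 probes for the 5p arm of miR-1224 share 1 seed. The 3 from other species (ptr-miR-1224-5p, hsa-miR-1224-5p and bta-miR-1224) each carry the substitution G10C against the rat target, with positions counted from 1 at its 5′ end. The other 2, hsa-miR-1224-3p and ssc-miR-1224, lie on the opposite arm, where they start at bases 65 and 68 of the rat hairpin and each carry U74C, counted from the first base of the hairpin. The last 2 bases of ssc-miR-1224 run past the end of the RefSeq hairpin.

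The 9 miR-320 targets are all different but closely alike, and 7 have the seed of rno-miR-320. Against the rat target, ptr-miR-320d is a shorter form of 18 bases without a mismatch and ssc-miR-320 has 1 more base at its 3′ end. The human targets of the b to e forms each have 1 substitution near the 3′ end, and 3 are also shorter: G21A in hsa-miR-320b, C20U in hsa-miR-320c, which lacks the last 2 bases, G19A in hsa-miR-320d, which lacks the last 3, and G17A in hsa-miR-320e, which lacks the last 3 and starts at position 2. The frog probe xtr-miR-320 has G19U, C20G and G21A and lacks the last base. The cattle probe bta-miR-320b starts at position 4, so that its seed differs. It has C20U, A22G and 1 more base at its 3′ end.

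Before the results, 1 array stands apart. On AA replicate 20 the mean probe signal above the empty spots was 149, against 263 or more on each of the other 5, and 66.8% of the 1132 tested probes stood well above background there, against 84.9% to 97.9% elsewhere. Well above background means a mean of the spots above the median of the empty spots by more than 3 robust SDs. The same array also held a signal for miR-122, the abundant liver miRNA. The rat-named miR-122 probe read 2026 scanner units above the empty spots there and 18.9 to 88.8 on the other 5 arrays, and 3 of the 4 miR-122 probes on the chip were well above background there and highest there. Of 3 miRNAs known from kidney, miR-192 and miR-194 were well above background on all 6 arrays, with deposited values of 1189 to 1586 and 264 to 802, while miR-204 was well above it on 2 of 6, with values of 17.8 or less. The summed deposited values of these 3, which are normalized, were 1559 on AA replicate 20, 1622 and 1847 on the other AA arrays, and 1826 to 2405 on the control arrays. In scanner units above the empty spots, miR-192 read 171 on AA replicate 20 and 1282 to 3870 elsewhere. For miR-194 these readings were 46.6 and 396 to 1885. miR-206, known from skeletal muscle, had deposited values of 599 on AA replicate 20 and 66.1 to 511 elsewhere. In scanner units above the empty spots it was lowest on AA replicate 20, at 98.0 against 154 to 1038 elsewhere. miR-208, known from heart, was well above background on 0 arrays, with deposited values of 3.33 or less. The summed deposited values of the 4 miR-122 probes were 43342 on AA replicate 20 and 23.4 to 170 on the other arrays. The part of this in the values below was not tested, and the changes of the tested probes are given with and without this array, singly or as a median and range.

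Of the 18 probes, 15 reached the study's threshold of 32 on at least 1 array and were tested, among them all 9 for miR-320. The 3 that did not are the rat-named probes for miR-484 and miR-877 and bta-miR-1224, whose deposited values ran from 0.0973 to 22.5. On every array, 12 of the 18 were at or above 32 and 13 were well above background. Of the 4 rat-named probes, therefore, those for miR-320 and miR-1224 gave a reading on which AA and control can be compared, and those for miR-484 and miR-877 did not.

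None of the 15 tested probes was called at an adjusted p of 0.05 by limma, where 0.177% of all tested probes were called, and 1 of the 15 was under an unadjusted p of 0.05, where 4.95% of all tested probes were (3.8% with a change below 0, the direction of that probe). The methods' t-test, adjusted in the same way, also called none. The adjusted p-values of the 15, over all 1132 tested probes, ran from 0.832 to 0.921. The AA arrays lay wholly above or below the control arrays for 2 of the 15, with 9.98% of all tested probes doing so. The log2 change, AA minus control, was above 0 for 13 of the 15 probes and for 45.8% of all tested probes. Since the probes were proposed with these values known, the counts describe them and nothing is read from them.

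**Figure D1:**
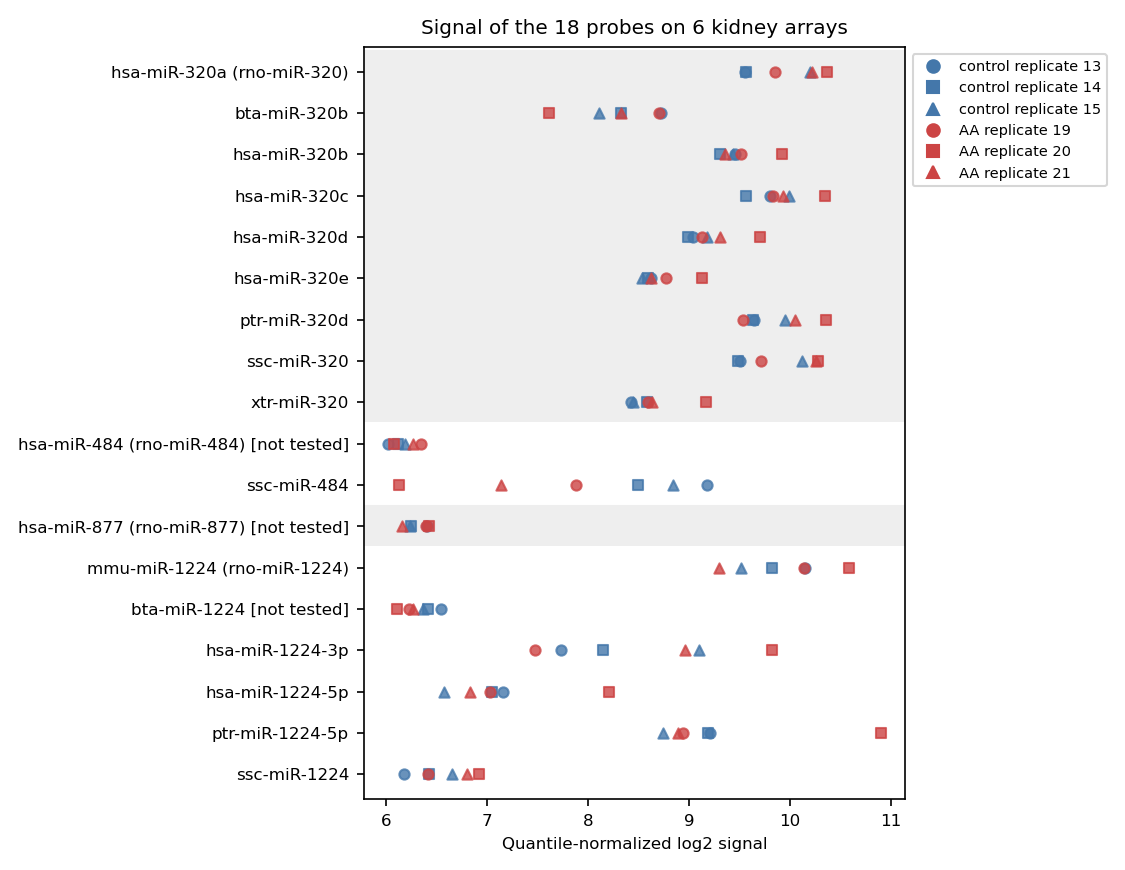
Quantile-normalized log2 signal (horizontal axis) of each of the 18 probes on the 3 control arrays (blue) and the 3 AA arrays (red), with shading that separates the 4 miRNAs. The AA replicate 20 array (red square) gave the highest value for 13 of the 15 tested probes and the lowest for ssc-miR-484 and bta-miR-320b; levels of different probes are not comparable.

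The miR-320 probes gave small differences between AA and control, of 1 sign in 8 of 9 probes and none past the threshold. The rat-named probe (hsa-miR-320a on the chip) gave log2 signals, meaning quantile-normalized log2 intensities, of 9.56, 9.56 and 10.20 in control kidney, and of 9.85, 10.37 and 10.22 in AA kidney. The groups overlapped, because control replicate 15 was higher than AA replicate 19. The means were 9.77 ± 0.37 in control and 10.15 ± 0.27 in AA kidney (SD, n = 3 each), a log2 change of 0.38 with an SE of 0.30 (95% interval -0.33 to 1.08; limma adjusted p = 0.885). Without AA replicate 20 the change was 0.28 (limma adjusted p = 0.809).

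The other miR-320 probes stood close to it. Over the 9 probes the log2 change had a median of 0.26 and ran from -0.17 to 0.38, with SEs of 0.26 to 0.36, and the 95% interval of every one held 0. The median over all tested probes was -0.05. The largest values were those of the rat-named probe and of ssc-miR-320, whose target is 1 base longer; ssc-miR-320 read 9.51, 9.49 and 10.12 in control and 9.72, 10.27 and 10.26 in AA kidney, a change of 0.38. Next came xtr-miR-320 and hsa-miR-320d, each at 0.31, hsa-miR-320e at 0.26, hsa-miR-320c at 0.25, ptr-miR-320d at 0.23 and hsa-miR-320b at 0.20. Differences between neighbours in this order were smaller than the SE of each.

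For xtr-miR-320, the target with 3 substitutions, the AA arrays lay wholly above the control arrays. Its log2 signals were 8.42, 8.58 and 8.45 in control and 8.59, 9.16 and 8.63 in AA kidney. The gap was narrow, since AA replicate 19 and control replicate 14 were almost equal, and the limma adjusted p was 0.885. The groups overlapped with cyclic loess, with median scaling, without normalization and on the deposited values. The share of all tested probes with AA wholly above control was 4.42%, and 1 of the 9 miR-320 probes had it.

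The probe with 2 substitutions and a late start, bta-miR-320b, went its own way. It read 8.72, 8.32 and 8.11 in control and 8.70, 7.61 and 8.32 in AA kidney, so that AA replicate 20 was its lowest array and the change was -0.17 with an SE of 0.36. Without AA replicate 20 its change was 0.14, on the same side of 0 as the other 8.

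**Figure D2:**
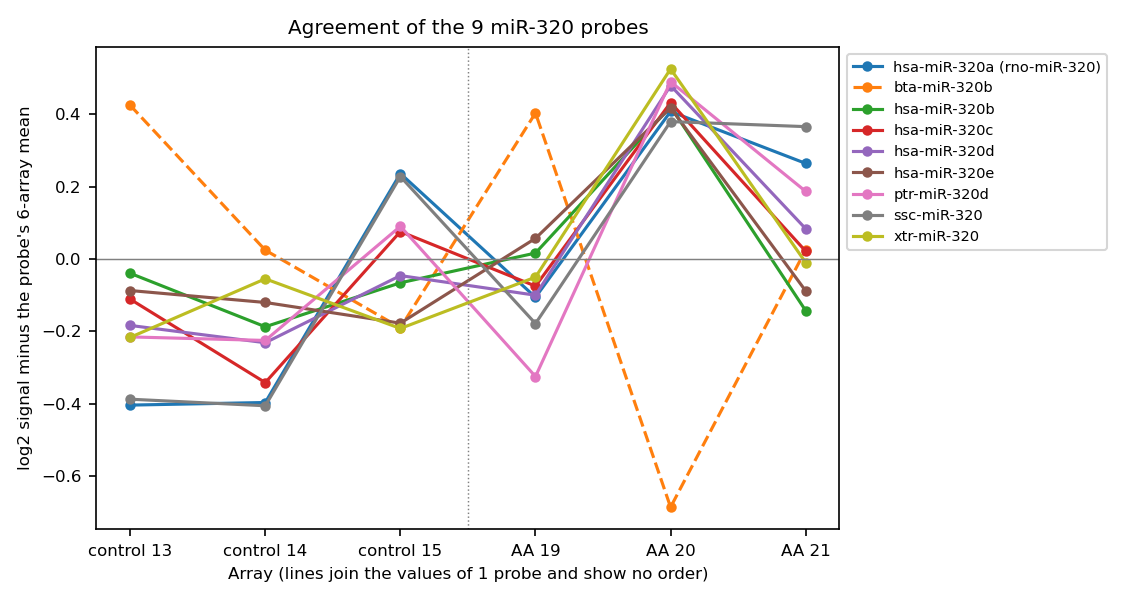
For each of the 9 miR-320 probes, the log2 signal minus the mean of that probe over the 6 arrays (vertical axis) on each array (horizontal axis). Of the 9 probes, 8 peak on AA replicate 20, and bta-miR-320b (dashed) has its lowest value there.

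AA replicate 20 was the highest array for 8 of the 9 miR-320 probes. The value on that array minus the mean of the other 5 was 0.46 to 0.63 for 8 probes and -0.82 for bta-miR-320b. Between 21.6% and 24.8% of all tested probes had a difference as high as those of the 8. Without the array, the median change over the 9 probes was 0.14 and their range, the highest minus the lowest change, went from 0.55 to 0.26. The probes also split on control replicate 15: against the mean of control replicates 13 and 14 it was higher by 0.64 for the rat-named probe and 0.63 for ssc-miR-320, but lower by a difference of -0.07 for hsa-miR-320e, -0.06 for xtr-miR-320 and -0.41 for bta-miR-320b. The control arrays were thus ordered differently by probes of different target variants.

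miR-484 had no usable reading from its rat-named probe. The deposited values of rno-miR-484 were 0.964, 4.00 and 8.52 in control kidney and 15.6, 0.0973 and 12.5 in AA kidney. It was well above background on 1 of the 6 arrays, and no fold was computed. A value below the threshold bounds what this probe detected and does not show that miR-484 was absent from the kidney.

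The pig probe ssc-miR-484 had the lowest AA values relative to control of the 15. Its deposited values were 537, 322 and 412 in control kidney and 192, 11.9 and 69.0 in AA kidney. Every AA array lay below every control array, as for 5.57% of all tested probes, but the groups overlapped without normalization between arrays. The probe was well above background on all 3 control arrays and on AA replicates 19 and 21 but not 20. On the log2 scale the signals were 9.17, 8.49 and 8.84 in control and 7.88, 6.12 and 7.13 in AA kidney, with means of 8.84 ± 0.34 and 7.05 ± 0.88 (SD, n = 3 each). The log2 change was -1.79 with an SE of 0.47 (95% interval -2.88 to -0.70). The size of this change is not an exact fold, since the signals carry an offset of 50 and AA replicate 20 was not well above background; it was -3.05 with plain subtraction of the empty spots and -2.90 on the deposited values.

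The unadjusted limma p of ssc-miR-484 was 0.00596, and 0.530% of all tested probes had one as small; after adjustment over 1132 probes it was 0.832. Without AA replicate 20, its lowest array, the change was -1.49 with AA still wholly below control (limma adjusted p = 0.322). The change was below 0 under all 18 alternatives, from -3.05 to -1.39. Other filters, the median over 2 spots, the methods' t-test and the trended and robust prior cannot alter it and again gave -1.79. Another 6 alternatives each left out 1 array. The probe passed the threshold under 1 alternative, in which arrays were weighted by their fit (change -1.50, limma adjusted p = 0.0405). AA replicate 20 had the lowest weight there, 0.124. With these weights 44 of the 1132 tested probes were called, where the main fit called 2. As the target of this probe does not align to the rat miRNA or its hairpin, the value belongs to an RNA that was not identified here.

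**Figure D3:**
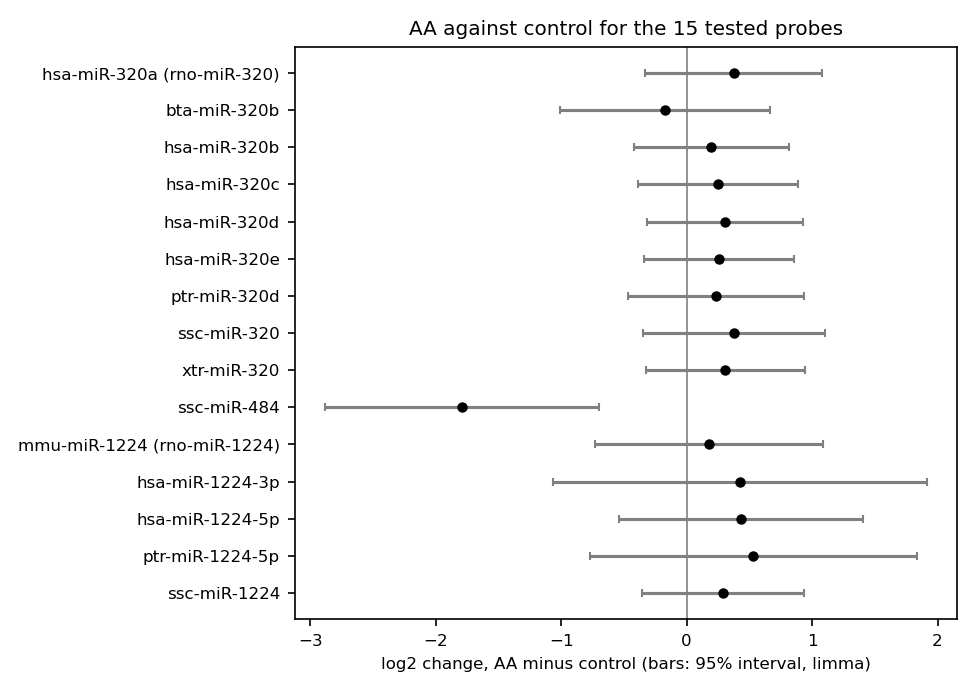
Log2 change, AA minus control (horizontal axis), of the 15 tested probes, with 95% intervals from limma as bars. The interval holds 0 for 14 probes, and that of ssc-miR-484, from -2.88 to -0.70, does not.

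miR-877, the mirtron of Abcf1, gave deposited values of 15.1, 9.25 and 10.1 in control kidney and of 16.1, 15.1 and 5.59 in AA kidney. All were under 32, the groups overlapped, and the probe was well above background on 2 control arrays and 1 AA array, so no change was computed.

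miR-1224, the mirtron of Vwa5b2, had tested probes for both arms, those for the 3p arm being human and pig probes. Whether each of them read rat miR-1224 was not tested. The rat-named probe (mmu-miR-1224 on the chip), for the 5p arm, gave log2 signals of 10.15, 9.82 and 9.52 in control kidney and of 10.14, 10.59 and 9.30 in AA kidney. The AA arrays held both the highest and the lowest of the 6 values. The means were 9.83 ± 0.31 and 10.01 ± 0.65 (SD, n = 3 each), a log2 change of 0.18 with an SE of 0.39 (95% interval -0.73 to 1.09; limma adjusted p = 0.921). Without AA replicate 20 the change was -0.11.

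The other probes for the 5p arm also had their top value on AA replicate 20. ptr-miR-1224-5p read 9.21, 9.18 and 8.74 in control and 8.94, 10.90 and 8.89 in AA kidney, a change of 0.53 with an SE of 0.55. On AA replicate 20 it stood 1.91 above the mean of the other 5 arrays, which 4.51% of all tested probes matched or passed, and without that array its change was -0.13. hsa-miR-1224-5p, the shortest of these targets, read 7.15, 7.04 and 6.57 in control and 7.03, 8.20 and 6.83 in AA kidney, a change of 0.43 that became 0.01 without AA replicate 20. bta-miR-1224 was not tested; its deposited values were 17.6 to 22.5 in control and 6.35, 0.753 and 11.03 in AA kidney. All were under the threshold, and the probe was well above background on all 3 control arrays but on only 1 AA array. The 3 AA arrays lay below the 3 control arrays, as for 5.57% of all tested probes, a set that does not hold this probe. That is the other side from the change of the tested 5p probes with all arrays in, but at values this low no change was computed. The bta-miR-1224 target lies within that of ptr-miR-1224-5p, whose deposited values were 300 to 2999. The source of that difference was not tested.

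On the 3p arm, hsa-miR-1224-3p read 7.73, 8.15 and 9.10 in control and 7.48, 9.82 and 8.96 in AA kidney, a change of 0.43 with an SE of 0.63 that became -0.13 without AA replicate 20. The spread within each group was wider than the difference between them. The 3p probe ssc-miR-1224, at or above 32 on 3 of the 6 arrays, read 6.17, 6.42 and 6.65 in control and 6.41, 6.91 and 6.80 in AA kidney, a change of 0.29 with an SE of 0.28 that became 0.22 without AA replicate 20.

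The 2 arms differed on control replicate 15. All 3 tested 5p probes had control replicate 15 below the mean of control replicates 13 and 14, by differences of -0.46, -0.53 and -0.46 for the rat-named, hsa-miR-1224-5p and ptr-miR-1224-5p probes. Both 3p probes had it above, by 1.16 for hsa-miR-1224-3p and 0.36 for ssc-miR-1224. AA replicate 20 was the highest array for all 5. The median change over the 5 probes was 0.43, within a range of 0.18 to 0.53, and was -0.11 without that array.

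The place of AA replicate 20 among the arrays changed with normalization. Before it, that array was the lowest of the 6 for 12 of the 15 tested probes, among them all 9 for miR-320, with 64.4% of all tested probes lowest there. After it, the array was the highest for 13 of the 15, with 24% of all tested probes highest there. The rat-named miR-320 probe read 1646, 797 and 873 scanner units above the empty spots in control kidney and 2382, 233 and 1013 in AA kidney. For rno-miR-1224 the same readings were 2539, 947 and 490 in control and 2775, 280 and 458 in AA kidney. For ssc-miR-484 they were 1261, 324 and 272 in control and 438, 9.95 and 48.0 in AA kidney, so that this probe was lowest on AA replicate 20 on both scales. Without normalization between arrays all 15 changes were below 0, and the median over all tested probes was -0.32.

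**Figure D4:**
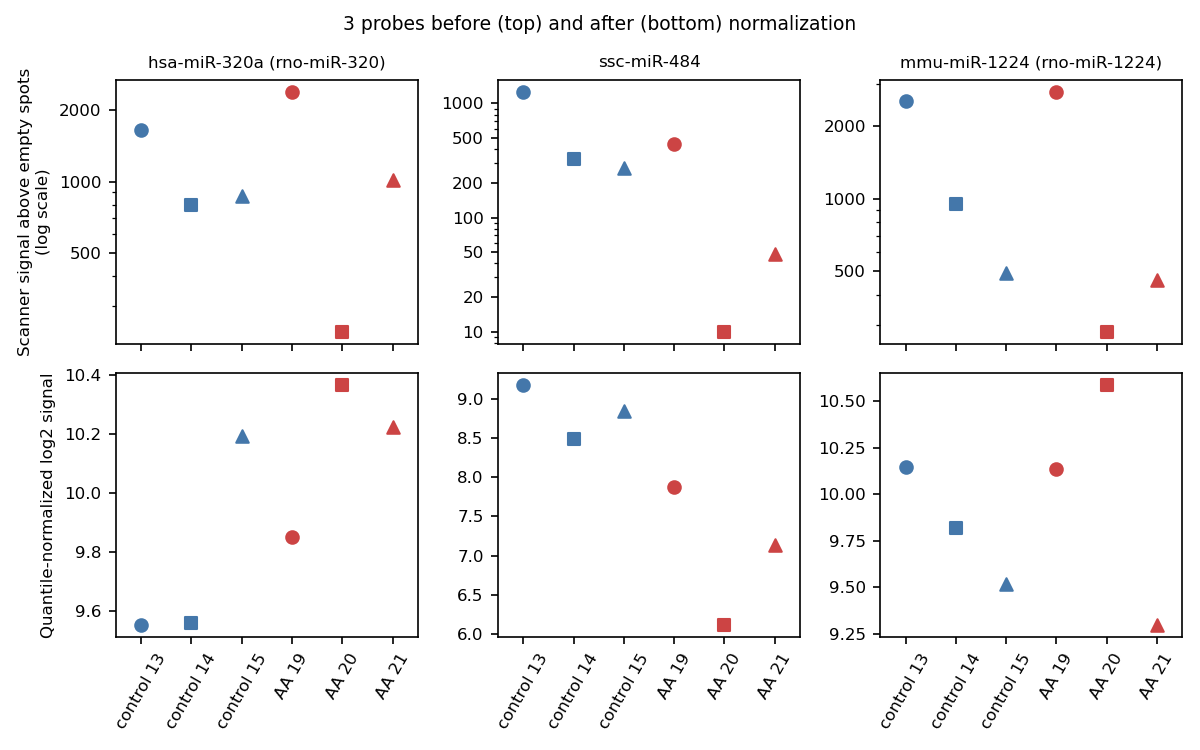
Scanner signal above the empty spots (top, log scale) and quantile-normalized log2 signal (bottom) of rno-miR-320, ssc-miR-484 and rno-miR-1224 on the 3 control arrays (blue) and the 3 AA arrays (red). AA replicate 20 is lowest for all 3 probes before normalization, and after it is highest for rno-miR-320 and rno-miR-1224.

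The tested rat-named probes whose centred log2 profile over the 6 arrays was closest to that of rno-miR-320 were rno-miR-18a* (root mean square difference 0.15), rno-let-7c (0.17) and rno-let-7b (0.18), against a median of 0.50 over the 178 probes compared. For rno-miR-1224 they were rno-miR-32* (0.21), rno-miR-3564 (0.23) and rno-miR-183 (0.30), against a median of 0.61.

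Other miRNAs made by noncanonical routes were taken from a list. It held mirtrons (miR-702, miR-1225 to miR-1229 and miR-1236 to miR-1238), miR-451, which Argonaute 2 cuts in place of Dicer, and miR-1839, which comes from a small nucleolar RNA; the chip had 32 probes for them and 14 were tested. None passed a limma adjusted p of 0.05 in either direction (lowest 0.885) or an unadjusted p of 0.05 (lowest 0.137), which 0.177% and 4.95% of all tested probes did, and 2 changes were above 0 and 12 below, where 45.8% of all tested probes were above 0. Their median log2 change was -0.31, and it was -0.35 for the 10 tested mirtron probes alone. Without AA replicate 20 the medians were -0.19 and -0.21, again with 2 changes above 0 and 12 below. Control replicate 15 was the highest of the 6 arrays for every tested mirtron probe with a change below 0. The lowest change, -0.75, was that of ppy-miR-1238, which read 6.34, 6.79 and 8.02 in control and 6.33, 6.08 and 6.49 in AA kidney. For mml-miR-1227, the mirtron probe with a change above 0, control replicate 15 was the lowest array. A value of 32 on 1 array was enough for testing, so mirtron probes could enter through control replicate 15 alone. For example, ppy-miR-1237 read 6.90 there and 5.96 to 6.32 on the other arrays. The signs and medians of this list are therefore not read as a result, and the part of that array in them was not tested. The rat-named miR-451 probe, which reads a miRNA of red blood cells, gave 7.13, 6.86 and 6.80 in control and 7.20, 6.21 and 6.37 in AA kidney, a change of -0.34 with an SE of 0.33 that became -0.18 without AA replicate 20.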

How the data were processed

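The scanner files, 1 per array, hold Array-Pro spot intensities from a 1-colour Cy3 hybridisation, not background-corrected, as the authors deposited them. The deposited series table holds intensities that the authors background-subtracted and normalized with a LOWESS filter. Scanner intensities were corrected with normexp (offset 50) over every spot, after which controls and empty spots were dropped, values were log2-transformed and quantile-normalized, and each probe took the mean of its 2 spots (R 4.3.3, limma 3.58.1). Probes with a deposited value of 32 or more on at least 1 array were tested, 1132 in all; 1 of these has no deposited value and was filtered on the scanner signal. AA and control were compared with lmFit and eBayes, with Benjamini-Hochberg adjustment over all tested probes and a threshold of 0.05. The pipeline was run on simulated data to check the code, and no statement on what these arrays can detect is drawn from it. With 3 arrays a group, their number limits the precision. The labels and file headers used here name no slide or scan batch, and the groups share no replicate numbers. The labels treat arrays as separate rats.

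All member probes are named, with array values for the rat-named ones, for ssc-miR-484 and for tested probes of other species; likeness was the root mean square difference of centred log2 signals, with the 3 nearest named. The members and lists, tissue markers included, were chosen with earlier results of these data known. The sequences of the miR-320 targets are not reported here. Alternatives covered the offset, plain background subtraction, cyclic loess, median scaling, no normalization, the deposited values as log2(value + 1), other filters, the median over spots, the methods' t-test, array weights, a trended and robust prior, and leaving out each array.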

Additional observations from a re-analysis of the deposited data

How the results depend on the processing

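Each result was recomputed under 18 alternatives. The 2 probes called among all tested probes became 0 with cyclic loess, median scaling or no normalization, 44 with array weights (whose fit stopped before its tolerance was reached), and 0 to 3 when 1 array was left out; 1 probe of the noncanonical set, ssc-miR-484 (-1.50, limma adjusted p = 0.0405), was called with weights and 0 when any 1 array was left out. Its change was -3.05 with plain subtraction and -2.90 on the deposited values, where low signals are not offset. The median change of miR-320 was 0.11 with median scaling, -0.31 without normalization and 0.41 on the deposited values, where the median of all tested probes was 0.09, -0.32 and -0.17. The range over miR-320 probes was 0.38 with cyclic loess, 0.25 with median scaling or none, 0.82 on the deposited values and 0.26 to 0.96 when 1 array was left out. For miR-1224 the median was -0.22 without normalization, -0.12 with weights and -0.11 to 0.53 when 1 array was left out, and the range was 1.01 with weights and 0.35 to 0.90 when 1 array was left out.

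Without normalization the change turned negative for hsa-miR-320a (the rat-named probe, -0.26), hsa-miR-320b (-0.41), hsa-miR-320c (-0.40), hsa-miR-320d (-0.29), hsa-miR-320e (-0.31), ptr-miR-320d (-0.38), ssc-miR-320 (-0.24), xtr-miR-320 (-0.27), mmu-miR-1224 (rno-miR-1224, -0.49), hsa-miR-1224-3p (-0.27), hsa-miR-1224-5p (-0.22), ptr-miR-1224-5p (-0.13) and ssc-miR-1224 (-0.0099). mmu-miR-1224 was also at -0.075 with median scaling, and with weights mmu-miR-1224 was at -0.38, hsa-miR-1224-5p at -0.12 and ptr-miR-1224-5p at -0.18. Leaving out 1 array moved bta-miR-320b between -0.38 and 0.14, mmu-miR-1224 between -0.11 and 0.51, hsa-miR-1224-3p between -0.13 and 1.03 and ptr-miR-1224-5p between -0.13 and 0.86. The cause of these moves was not tested. No slide or scan block was fitted, since none is named. The 18 targets differ, so none of these probes could be merged by target sequence, and merging of the other tested probes was not run. No paired analysis was possible because the groups share no replicate number. Low signal limits rno-miR-484, rno-miR-877 and bta-miR-1224, and ssc-miR-484 on AA replicate 20.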

Other observations

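Mouse and human probes for the mature* strand of miR-877, which were not aligned to the rat hairpin, passed the threshold of 32 on at least 1 array. The mouse probes for the mature* strands of miR-320 (rat-named) and miR-1224 stayed under 32 on every array and were not tested. Their deposited values were 1.06 to 12.3 and 5.11 to 19.7. The deposited values of mmu-miR-877* were 196, 235 and 660 in control kidney and 84.9, 786 and 487 in AA kidney, with overlapping groups and a log2 change of 0.05 (SE 0.63) that was -0.33 without AA replicate 20. hsa-miR-877* gave 43.9, 70.2 and 224 in control and 22.2, 381 and 107 in AA kidney, a change of 0.26 (SE 0.64) that was -0.40 without that array. Both ordered the 6 arrays in the same way, with AA replicate 20 highest and AA replicate 19 lowest.

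Most of the tested miR-320, miR-484 and miR-1224 targets are rich in G: 13 of 15 hold 40% G or more, a limit set after the values were seen. Over all tested probes the value on AA replicate 20 minus the mean of the other 5 arrays had a median of -0.06 for the 284 probes with 40% G or more and of -0.29 for the other 848, with upper quartiles of 1.03 and 0.23. The 2 tested members under 40% G, hsa-miR-1224-3p and ssc-miR-1224, also stood higher on AA replicate 20, by 1.54 and 0.42. Of the 13 others, bta-miR-320b and ssc-miR-484 stood lower there, with differences of -0.82 and -2.18, and the rest stood higher. These are values across probes of the same arrays, and no test was made.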
